A study of Mus musculus with 3 samples.

Results

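The genes described here are 10 of the 31510 in the deposited tables: 3 zinc exporters of the SLC30 family (Slc30a1, Slc30a4 and Slc30a5), 4 zinc importers of the SLC39 family (Slc39a1, Slc39a4, Slc39a8 and Slc39a10), the metallothioneins Mt1 and Mt2, and the metal-sensing transcription factor Mtf1. They were found by gene symbol in 6 cases and by Ensembl ID in 4. The choice was made with their levels in these libraries known, so those levels are given as a description, without a test. RNA was measured in mouse blastocysts held in delayed implantation, in 1 library for each of 3 states. All mothers were CD-1 females of 2 months, ovariectomised on day 4 of pregnancy, and each was given progesterone (2 mg) from day 5 through day 7. Dormant blastocysts were taken from the uterus on day 8 with no estradiol (E2). Reactivating blastocysts were taken 6 h, and reactivated ones 12 h, after E2 was given on day 7. Each library was made from more than 3000 pooled embryos, so no difference below has a replicate check. State, hours after E2 and day of collection cannot be told apart.

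Zinc enters the cytosol through SLC39 (ZIP) proteins and leaves it, for the outside or for vesicles, through SLC30 (ZnT) proteins. Metallothioneins are small proteins rich in cysteine that bind the zinc in between. In mouse cells, free zinc activates MTF1, which binds metal response elements in the promoters of Mt1, Mt2 and Slc30a1 and raises their transcription, while the same factor lowers Slc39a10. Mouse embryos need several of these transporters early: loss of Slc30a1 or Slc39a4 is lethal in the embryo.

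The promoter windows of the 3 genes whose RNA was higher in reactivated blastocysts are shown because they are the genes named above as raised by MTF1. Each runs from 250 bases before to 50 bases after the RefSeq start site (GRCm38.p6), is written 5′ to 3′ on the gene's strand, and has in capitals the matches to the core of the metal response element. The core was searched on both strands as TGCACNC and TGCGCNC, and a match on the minus strand appears as its reverse complement.
Slc30a1 (chr1:191906531-191906830, plus strand): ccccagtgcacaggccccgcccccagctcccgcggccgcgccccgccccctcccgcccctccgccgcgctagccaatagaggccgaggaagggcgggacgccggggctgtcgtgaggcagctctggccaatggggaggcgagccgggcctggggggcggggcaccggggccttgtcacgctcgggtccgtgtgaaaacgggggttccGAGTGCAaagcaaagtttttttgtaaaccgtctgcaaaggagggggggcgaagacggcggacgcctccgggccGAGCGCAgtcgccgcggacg
Mt2 (chr8:94172368-94172667, plus strand): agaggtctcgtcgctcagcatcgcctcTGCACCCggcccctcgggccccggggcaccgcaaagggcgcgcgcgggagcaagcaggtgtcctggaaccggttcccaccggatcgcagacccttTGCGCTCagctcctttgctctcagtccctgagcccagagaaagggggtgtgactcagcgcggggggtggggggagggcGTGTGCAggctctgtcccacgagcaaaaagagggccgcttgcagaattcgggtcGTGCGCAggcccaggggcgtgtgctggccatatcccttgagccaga
Mt1 (chr8:94178839-94179138, plus strand): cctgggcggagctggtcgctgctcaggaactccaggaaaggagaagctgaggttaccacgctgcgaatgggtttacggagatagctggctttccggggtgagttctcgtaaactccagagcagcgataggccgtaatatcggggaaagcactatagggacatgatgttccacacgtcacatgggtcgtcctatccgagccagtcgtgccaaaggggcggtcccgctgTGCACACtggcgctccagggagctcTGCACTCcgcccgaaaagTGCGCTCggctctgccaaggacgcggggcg

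With the start site counted as 0, Mt2 had 4 matches, starting at -223, -128, -50 and 4. Mt1 had 3, starting at -23, 2 and 20, all of them on the plus strand. Slc30a1 had 2, starting at -43 and 30, both on the minus strand. Of all 32851 promoter windows of that length in the RefSeq table, 25.7% held at least 1 match, 7.11% at least 2, 1.97% at least 3 and 0.517% at least 4. The letters are therefore common in mouse promoters, and a match is not a binding site. Windows were matched for 9 of the 10 genes, all but Slc39a4, and 6 of the 9 held a match. That count takes a gene with a match in any of its windows, 11 windows in all. The shares above are of single windows, so the 2 cannot be set side by side. Slc30a4 had 3, as many as Mt1, and Slc30a5 and Slc39a8 had 1 each. Slc39a10, named above as lowered by MTF1, had none in either of its windows, which are not shown. Slc39a1 and Mtf1 had none either. Some protein-coding transcripts in GENCODE M21 start 122 and 152 bases downstream of the RefSeq start of Mt1, 46 and 242 bases downstream of that of Mt2, and 475 bases downstream of that of Slc30a1. The start at 46 bases lies within the Mt2 window, and the others lie beyond the end of their windows.

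**Figure D1:**
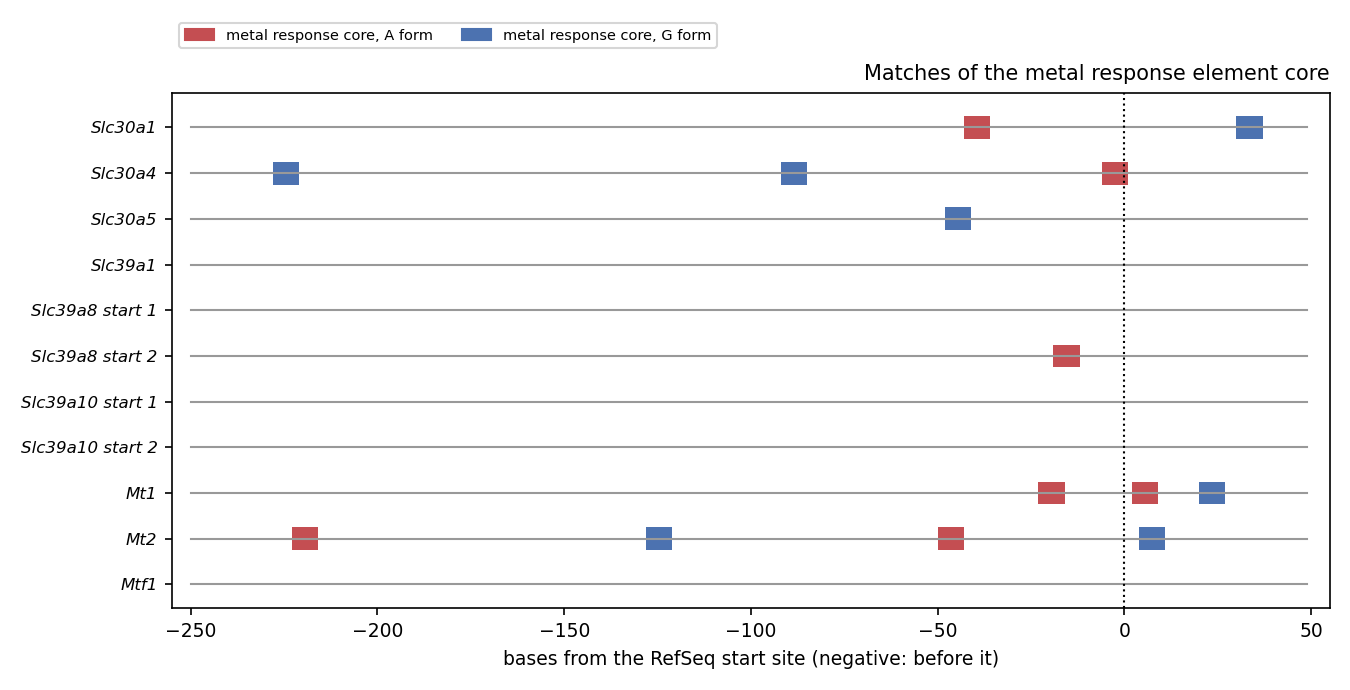
Matches of the metal response element core in the promoter windows of 9 genes, by distance in bases from the RefSeq start site (dotted line). Red marks the TGCACNC form and blue the TGCGCNC form; genes with several start sites have a line each. Mt2 has 4 matches, Mt1 and Slc30a4 have 3 each, and Slc39a1, Slc39a10 and Mtf1 have none.

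The 3 libraries held 9298675, 10364607 and 12941447 exon reads in dormant, reactivating and reactivated blastocysts. Levels are the authors' RPKM, exon reads corrected for transcript length and sequencing depth, with exact 95% Poisson intervals that cover counting error only. All 10 genes had at least 1 RPKM in each library. A gene counts as higher or lower where the log2 difference of RPKM + 1 was at least 1 in size (2 times) and the higher library had at least 1 RPKM. The tissue label was checked against markers. All 8 trophectoderm, 5 epiblast and 5 primitive endoderm markers had at least 1 RPKM in each library. Of the 10 markers of uterine epithelium, 7 had at least 1 RPKM in each library as well. Those counts therefore do not set embryo apart from uterine epithelium. The 10 summed to 233, 203 and 171 RPKM in dormant, reactivating and reactivated blastocysts, and none passed the rule upwards. In the same order the trophectoderm list summed to 1230, 1210 and 951 RPKM. The epiblast list summed to 142, 194 and 186 RPKM and the primitive endoderm list to 62.9, 59.5 and 49 RPKM. The 6 stromal markers summed to 3.95, 3.12 and 1.2 RPKM, and all 6 red cell markers stayed under 0.5 RPKM in each library.

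Between dormancy and 6 h after E2 none of the 10 genes changed past the size rule, against 2.68% of the 12126 tested genes higher, 3.07% lower and 5.75% in either direction. At 12 h, Slc30a1, Mt1 and Mt2 were higher than in dormant blastocysts and Slc39a4 was lower. That is 3 of 10 higher, where 5.27% of 12037 tested genes were, and 1 of 10 lower, where 7.66% were (12.9% in either direction). The same 4 genes passed between 12 h and 6 h, 3 higher against 3.82% of 12065 tested genes and 1 lower against 7.63% (11.4% in either direction). The median log2 difference of the 10 genes was 0.01, 0.15 and 0.27 in the comparisons reactivating with dormant, reactivated with dormant and reactivated with reactivating, against 0.06, -0.07 and -0.13 over all tested genes. Since the genes were chosen on these values, the shares are given side by side and nothing is read from them. The comparisons share libraries and are not independent of each other. Of all genes called between 12 h and 6 h, 33.4% were higher, and 49.6% with median-ratio scaling. Between 12 h and dormancy the share was 40.7%, and 51.9% with upper-quartile scaling. These scalings moved the median of all genes between 12 h and 6 h from -0.13 to 0.01 and 0.04, and the 4 calls were the same under each.

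**Figure D2:**
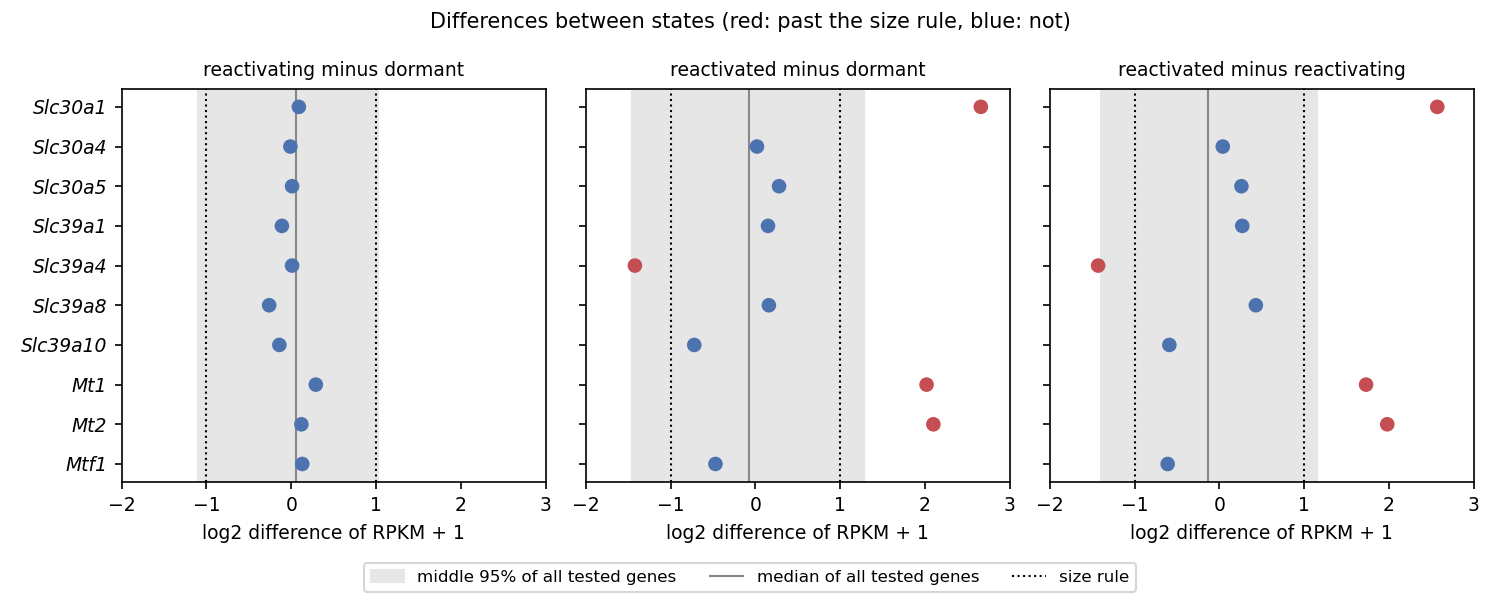
Log2 difference of RPKM + 1 for the 10 genes (rows) in the 3 comparisons (panels), with the later state minus the earlier. Grey spans the middle 95% of all tested genes, the solid line is their median and dotted lines mark the size rule. At 6 h all 10 genes lie between -0.26 and 0.29. At 12 h Slc30a1, Mt1 and Mt2 lie to the right of the grey band. Slc39a4 lies inside the band against dormant and just past its lower edge against reactivating blastocysts (-1.43 against -1.4).

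Among the exporters, Slc30a1 stood out. It encodes ZnT1, the transporter that moves zinc out through the plasma membrane (ENSMUSG00000037434, GRCm38 chromosome 1, 191906767 to 191913247). Its level was 4.97 RPKM (4.48 to 5.51, 368 exon reads) in dormant, 5.35 RPKM (4.86 to 5.87, 440 reads) in reactivating and 36.8 RPKM (35.6 to 38.0, 3661 reads) in reactivated blastocysts. The first 2 intervals overlapped and the third lay far above both. Of the rise in RPKM seen by 12 h, 1.19% was present at 6 h. The ratio of reactivated to dormant was 7.40 (exact 95% interval 6.65 to 8.26), and the log2 difference of RPKM + 1 was 2.66, rank 16 from the highest among 12037 genes. Against reactivating blastocysts the ratio was 6.88 (6.23 to 7.61). By level, the gene went from rank 7045 of 31510 in dormant through 6895 in reactivating to 1225 in reactivated blastocysts.

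The other exporters among the 10 moved little. Slc30a4, which loads zinc into vesicles and, in the mammary gland, into milk (chromosome 2, 122681233 to 122702663), was at 15.9, 15.7 and 16.2 RPKM in dormant, reactivating and reactivated blastocysts. The ratio of reactivated to dormant was 1.02 (0.944 to 1.10). Slc30a5, which brings zinc into the early secretory pathway (chromosome 13, 100802648 to 100833427), was at 15.7, 15.8 and 19.2 RPKM. Its level at 12 h (interval 18.1 to 20.3) lay above that in dormancy (14.5 to 16.9), with a ratio of 1.22 (1.11 to 1.35) that did not reach the size rule.

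Among the importers described here, only Slc39a4 passed the size rule, and it was lower at 12 h. It encodes ZIP4, the main importer of dietary zinc in the intestine (ENSMUSG00000063354, chromosome 15, 76612383 to 76617384). Its level was 13.8 RPKM (12.5 to 15.1, 432 reads) in dormant, 13.8 RPKM (12.6 to 15.1, 483 reads) in reactivating and 4.50 RPKM (3.88 to 5.19, 190 reads) in reactivated blastocysts. Dormant and reactivating blastocysts could not be told apart by counting error, and the reactivated level lay below both. The ratio of reactivated to dormant was 0.327 (0.274 to 0.389) and the log2 difference -1.42. Against reactivating blastocysts the ratio was 0.325 (0.273 to 0.385).

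Slc39a10, a plasma membrane importer (chromosome 1, 46807544 to 46892852), stayed short of the rule, at 10.3, 9.26 and 5.82 RPKM in dormant, reactivating and reactivated blastocysts. Its interval at 12 h (5.34 to 6.33) lay below that in dormancy (9.53 to 11), and the ratio was 0.567 (0.506 to 0.634). Slc39a1, another importer of the plasma membrane (chromosome 3, 90248172 to 90253612), was at 10.03, 9.19 and 11.3 RPKM, with overlapping intervals between dormancy and 12 h (ratio 1.12, 0.976 to 1.30). Of the 50-base stretches of its transcripts 21.8% also occur in its pseudogene Slc39a1-ps, so that its level is uncertain. Slc39a8, an importer that also carries manganese (chromosome 3, 135825279 to 135888572), was the lowest of the 10, at 1.57, 1.14 and 1.88 RPKM from 72, 58 and 116 exon reads. Its interval at 12 h (1.55 to 2.25) overlapped that in dormancy (1.23 to 1.98) and lay above that at 6 h (0.864 to 1.47).

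The metallothioneins were the highest of the 10 genes in each library. Mt1 (ENSMUSG00000031765, chromosome 8, 94179082 to 94180327) was at 82.3 RPKM (76.3 to 88.6, 698 reads) in dormant, 101 RPKM (94.4 to 107, 949 reads) in reactivating and 337 RPKM (327 to 348, 3847 reads) in reactivated blastocysts. Mt2 (ENSMUSG00000031762, chromosome 8, 94172664 to 94173568) was at 75.2 RPKM (68.1 to 82.9, 409 reads), 81.6 RPKM (74.6 to 89.2, 493 reads) and 326 RPKM (313 to 339, 2381 reads) in the same order. Both stood far higher at 12 h than in the other libraries. At 6 h the interval of Mt1 lay above that in dormancy and the interval of Mt2 overlapped it. Of the 12 h rise in RPKM, 7.22% was present at 6 h for Mt1 and 2.55% for Mt2.

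The ratio of reactivated to dormant was 4.10 for Mt1 (3.78 to 4.45) and 4.33 for Mt2 (3.90 to 4.82), and the log2 differences were 2.02 and 2.10. The genes are neighbours, with 5513 bases between the end of Mt2 and the start of Mt1. Their levels kept close to each other: in dormant blastocysts Mt1 over Mt2 was 1.09 (0.966 to 1.24), at 6 h it was 1.23 (1.10 to 1.38), and at 12 h it was 1.04 (0.983 to 1.09). No 50-base stretch of the annotated Mt1, Mt2, Slc30a1 or Slc39a4 transcripts occurred in the transcripts of another gene. The authors' exon lengths, 601 bases for Mt1 and 385 for Mt2, differ from those of GENCODE M21 (1246 and 588), which bears on the level of each and not on its change. Mt3 and Mt4, the metallothioneins of brain and of stratified epithelia, had at most 4 exon reads in any library.

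Mtf1, the zinc-sensing activator itself (chromosome 4, 124802104 to 124849800), did not pass the rule. It was at 8.34 RPKM (7.80 to 8.91), 9.24 RPKM (8.70 to 9.80) and 5.73 RPKM (5.35 to 6.14) in dormant, reactivating and reactivated blastocysts. The reactivated level lay below both others, with a ratio to dormant of 0.687 (0.625 to 0.756). The RNA of the activator was thus at its lowest in the library in which Mt1, Mt2 and Slc30a1 were at their highest. RNA level does not measure the zinc-bound activity of the protein.

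**Figure D3:**
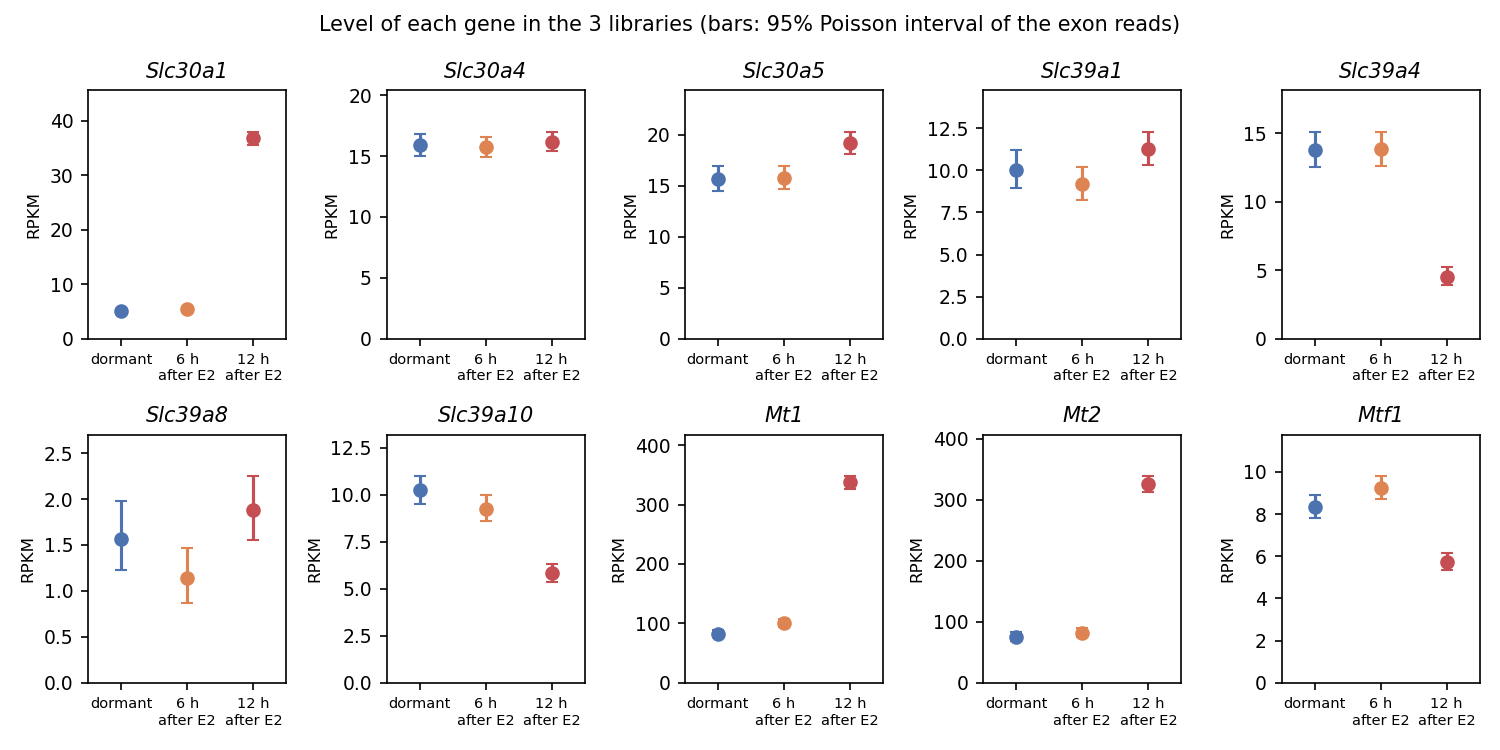
RPKM of the 10 genes in dormant blastocysts and 6 h and 12 h after E2, 1 library each, each panel with its own axis from 0. Points are the authors' RPKM and bars the 95% Poisson intervals of the exon reads. Slc30a1 and Mt2 are nearly level up to 6 h, and Mt1 rises a little, from 82.3 to 101 RPKM. Slc30a1, Mt1 and Mt2 are far higher at 12 h. Slc39a4 is level up to 6 h and falls to 4.50 RPKM at 12 h.

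The order of the 10 levels differed between 12 h and dormancy. Levels of different genes rest on the authors' exon lengths, which can differ from those of GENCODE M21. They were 3178 and 7294 bases for Slc30a5, and 3251 and 7664 bases for Slc39a8. The intervals do not cover this, so the order of genes within a library, and the family sums below, are less sure than each gene's change. In reactivated blastocysts Mt1 and Mt2 were first, with overlapping intervals, and Slc30a1 was the highest transporter of the 10, above Slc30a5. Slc30a4 and Slc39a1 followed, then Slc39a10 (5.82 RPKM) and Mtf1 (5.73 RPKM), whose intervals overlapped, and Slc39a4 lay below them with only Slc39a8 lower. In dormant blastocysts the order ran from Mt1 and Mt2, whose intervals overlapped, through Slc30a4, Slc30a5, Slc39a4, Slc39a10, Slc39a1 and Mtf1 to Slc30a1 and Slc39a8. There the intervals of Slc30a4 and Slc30a5 overlapped, as did those of Slc30a5 and Slc39a4 and those of Slc39a10 and Slc39a1.

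Reads in introns, which the authors counted apart from exon reads, were not part of the RPKM. They come from the same 3 libraries, and the genes were chosen with earlier results of these data known. The intron ratios are therefore a description too, and no independent check. Intron reads can come from RNA not yet spliced, or from bases that are exon in another annotation: in GENCODE M21 the exons of Mt1 cover its whole gene, 1246 bases. For Slc30a1 there were 24, 34 and 150 intron reads in dormant, reactivating and reactivated blastocysts, a ratio of reactivated to dormant of 4.65 after scaling to library size (3.01 to 7.48). For Mt1 there were 38, 43 and 118, a ratio of 2.31 (1.59 to 3.42), and for Mt2 16, 20 and 48, a ratio of 2.23 (1.25 to 4.21). All 3 intervals of the intron ratio lay above 1. The median ratio was 0.857 over the 6974 genes with at least 100 reads of each kind in the 2 libraries together. Mt2 had too few intron reads to be in that set. For Slc30a1 and Mt2 the intron intervals overlapped those of the exon ratios of reactivated to dormant. For Mt1 the exon interval lay above the intron interval, but not when intron reads were scaled to the intron total of each library (2.77, 1.91 to 4.11). Between 12 h and 6 h the Slc30a1 exon ratio (6.88, 6.23 to 7.61) lay above its intron ratio (3.65, 2.5 to 5.46). The intervals stayed apart with intron-total scaling (3.85, 2.64 to 5.77). Mt2 also had an exon ratio (3.99, 3.62 to 4.41) above its intron ratio (1.98, 1.16 to 3.53). Its intervals overlapped with intron-total scaling (2.1, 1.22 to 3.73), and those of Mt1 overlapped either way.

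Slc39a4 had 35, 38 and 25 intron reads and an intron ratio of 0.531 (0.305 to 0.913), with an interval overlapping that of its exon ratio. Mtf1 had 383, 361 and 264, a ratio of 0.513 (0.437 to 0.601), below the interval of its exon ratio, which it overlapped with intron-total scaling (0.615, 0.524 to 0.722). Slc30a4 had 176, 125 and 105 intron reads and a ratio of 0.444 (0.345 to 0.568), while its exon level was flat, and the intervals stayed apart with intron-total scaling (0.532, 0.414 to 0.682). Slc30a5 also had an intron ratio (0.806, 0.689 to 0.944) below its exon ratio, overlapping it with intron-total scaling (0.968, 0.827 to 1.13). The intervals of Slc39a10 overlapped with the first scaling and lay apart with the second (intron ratio 0.838, 0.639 to 1.1). The intron shares of the sense reads in reactivated and dormant blastocysts were 3.94% and 6.12% for Slc30a1, 2.98% and 5.16% for Mt1, 11.6% and 7.49% for Slc39a4, 16.5% and 13.8% for Slc39a10, and 23.5% and 27.7% over all genes. The Wilson 95% intervals of the states overlapped for Slc30a1, Slc39a4 and Slc39a10 and lay apart for Mt1 (2.49 to 3.55 and 3.78 to 7.01). For Mt2 (1.98% and 3.76%) they overlapped too. They also lay apart for Slc30a5 (22.5% and 30.5%) and Mtf1 (24.2% and 29.9%), whose shares fell as that over all genes did.

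**Figure D4:**
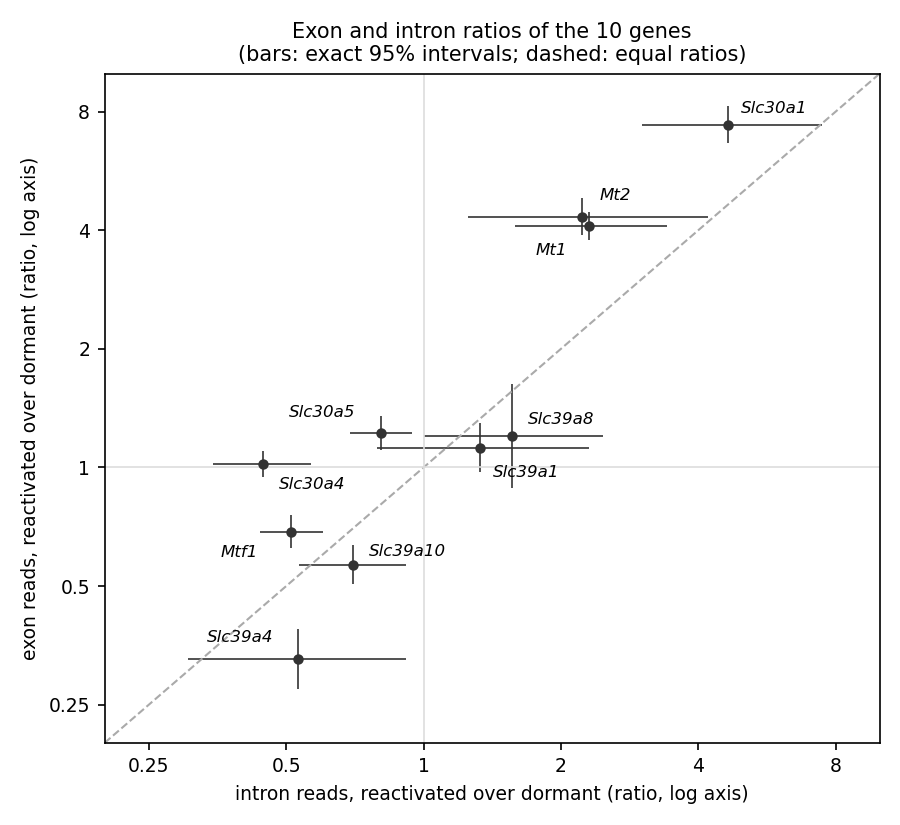
Ratio of reactivated to dormant for intron reads (horizontal) and exon reads (vertical) of the 10 genes, both scaled to library size and on log axes, with exact 95% intervals for counting error. Slc30a1, Mt1 and Mt2 lie above 1 on both axes, Slc39a4, Slc39a10 and Mtf1 below 1 on both, and Slc30a4 is near 1 for exons and at 0.444 for introns.

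The rest of both transporter families was taken as listed, whatever its change. Of the 7 other SLC30 genes, 5 reached 1 RPKM somewhere. Slc30a2, which loads zinc into vesicles (chromosome 4, 134343181 to 134354484), was at 2.87 RPKM (2.42 to 3.38), 2.51 RPKM (2.11 to 2.96) and 7.20 RPKM (6.57 to 7.87) in dormant, reactivating and reactivated blastocysts. It was the only other exporter past the size rule at 12 h (ratio to dormant 2.51, 2.08 to 3.04), and at 6 h it too had not passed. Slc30a6, the partner of ZnT5, was at 6.94 RPKM in reactivated and 5.42 RPKM in dormant blastocysts and did not pass. Slc30a7 (6.46 and 6.59 RPKM in reactivated and dormant blastocysts), Slc30a9 (10.01 and 12.1 RPKM) and Slc30a10 (2.34 and 2.74 RPKM) did not pass either.

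None of the 8 other SLC39 genes that reached 1 RPKM passed in any comparison. Slc39a2, a plasma membrane importer, was the highest transporter of either family, at 61.0, 52.3 and 67.3 RPKM in dormant, reactivating and reactivated blastocysts. Slc39a7, which releases zinc from the endoplasmic reticulum, was at 28.7, 33.8 and 23.4 RPKM, next to it within the SLC39 family. The remaining 6, with their log2 differences of reactivated from dormant, were Slc39a3 at -0.59, Slc39a6 at 0.09, Slc39a9 at -0.17, Slc39a11 at 0.07, Slc39a13 at -0.22 and Slc39a14 at 0.09. Summed per length, the 10 SLC30 genes came to 66.5, 68.1 and 105 RPKM and the 14 SLC39 genes to 156, 152 and 143 RPKM over the 3 states. Slc30a1 supplied 35.0% of the SLC30 sum at 12 h, and Slc39a2 supplied 47.0% of the SLC39 sum. Mt1 and Mt2 together came to 158, 182 and 663 RPKM.

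**Figure D5:**
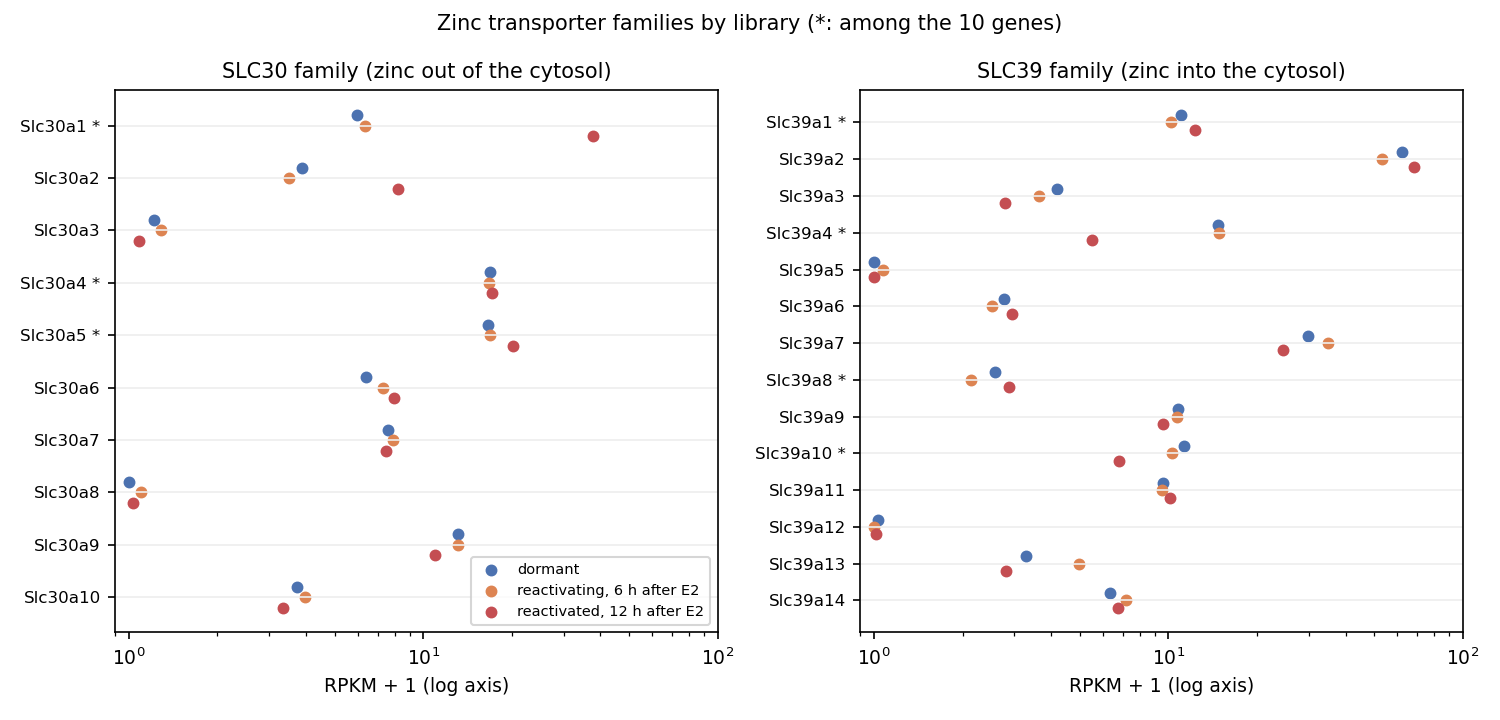
Level of each SLC30 gene (left) and SLC39 gene (right) as RPKM + 1 on a log axis in dormant, reactivating and reactivated blastocysts, 1 library each; stars mark genes among the 10. Slc30a1 and Slc30a2 are set apart at 12 h in the left panel, and Slc39a4 in the right, where Slc39a2 is highest throughout.

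Lists of related genes gave few calls. Of 9 measured copper genes, Steap3, a metalloreductase of endosomes (chromosome 1, 120190757 to 120272705), had a log2 difference of -1.06 between reactivated (2.33 RPKM) and dormant (5.92 RPKM) blastocysts, and the other 8 did not pass. The call was lost with median-ratio (-0.99) and upper-quartile (-0.97) scaling. None of 3 measured genes of other zinc handling passed, among them Trpm7, a channel that carries zinc (26.4 RPKM in reactivated and 20.1 RPKM in dormant blastocysts). Of 2 measured alkaline phosphatases, which carry zinc at the active site and receive it through ZnT5 and its partners, Alpl (chromosome 4, 137741733 to 137796384) was at 368, 404 and 96.4 RPKM in dormant, reactivating and reactivated blastocysts. It fell at 12 h to 0.262 of its dormant level (0.253 to 0.271). Alppl2 did not pass.

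The genes nearest in pattern were sought among 6681 protein-coding genes that reached 5 RPKM in some library and 20 exon reads in all, by the distance of the log2 differences 6 h from dormancy and 12 h from 6 h. For Slc30a1 they were Krt19, Ldha, Slc1a1, Slc16a3 and Fyb2, at distances of 0.16 to 0.34, and Krt19 stood at 16.03, 17.8 and 123 RPKM. For Mt1 they were Slc44a4, Rnf128, Glipr2, Hsph1 and Plod2, at 0.045 to 0.16, and Slc44a4 stood at 10.5, 12.6 and 43.9 RPKM. Mt2 was number 18 in likeness to Mt1. Ldha has many near-identical pseudogene copies, so its counts are uncertain. With 3 libraries such likeness is a description of 3 values per gene.

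Markers of other cells moved at 12 h as well. Of 9 immune markers, S100a8 and S100a9 were higher in reactivated blastocysts (16.6 and 20.4 RPKM) than in dormant ones (4.21 and 5.43 RPKM), while Laptm5, Cd14 and Tyrobp were lower. The call of Tyrobp rests on 9 exon reads in dormant (1.13 RPKM) and 0 in reactivated blastocysts, close to the minimum of 1 RPKM. The list summed to 43.6 RPKM in reactivated and 31.9 RPKM in dormant blastocysts, and S100a8 and S100a9 supplied most of the reactivated sum. Without passing the rule, Cd68 (1.72 and 3.61 RPKM in reactivated and dormant blastocysts) and Lyz2 (0.04 and 0.72 RPKM) were lower too. Ptprc and Mpo stayed under 0.5 RPKM in each library. Lif and Wfdc2 fell among the markers of uterine epithelium. Of the trophectoderm markers Elf5 rose and Cdx2 and Gata3 fell, and the list summed to 951 RPKM in reactivated and 1230 RPKM in dormant blastocysts. The part of these cell types in the levels of the 10 genes was not tested. In pooled embryos, fewer cells of a type and less RNA per cell cannot be told apart.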

How the data were processed

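The authors deposited, per library, read counts per gene (exon, intron, junction and opposite-strand reads, per the file headers) and an RPKM they computed. Reads were 50 bp single-end SOLiD reads of rRNA-depleted total RNA, per the labels' protocols. The submitters' processing notes name GRCm38; no aligner, counting tool or annotation is named, each being not given in the sources used here. Library totals recovered from counts and RPKM were 14118723, 15687239 and 18982195 in dormant, reactivating and reactivated blastocysts.

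Exon and opposite-strand reads are separate columns, so sense counts leave out antisense reads. Differences are on the log2(RPKM + 1) scale, so that folds of weakly expressed genes come out too small. Since no state has a second library, no SD or p-value is given. Intervals are exact (95%, Poisson for counts, binomial for ratios) and cover counting error only. Counts and intervals were computed with Python 3.11.15, scipy 1.17.1 and TMM factors with edgeR 4.0.16, and the scripts were tested on simulated data. Gene coordinates come from GENCODE M21, which held 84.7% of the IDs, and promoters from RefSeq.

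The 10 genes and the lists were chosen with earlier results of these data known. Named are the 10, other SLC30, SLC39 and metallothionein genes with at least 1 RPKM, called genes of the copper, other zinc and alkaline phosphatase lists, and the 5 genes nearest in pattern to Slc30a1 and to Mt1. Mt3, Mt4, Trpm7, Alppl2 and the markers were named after their values were seen.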

Additional observations from a re-analysis of the deposited data

Results flagged for a closer look

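Reads on the strand opposite to a gene stood above the limit of 3 reads that a count of 0 allows in at least 1 library for 8 of the 10 genes, all but Mt1 and Mt2. Of the 10347 genes with at least 1 RPKM in each library, 83.8% did so, and over all genes in the tables such reads made up 3.81% to 4.83% of the exon, intron and opposite-strand reads of a library. The comparisons do not use these reads. The highest library had 64 for Mtf1 (reactivated), 37 for Slc30a4 (dormant), 33 for Slc39a8 (reactivated), 19 for Slc39a10 (reactivated), 18 for Slc30a5 (dormant), 12 for Slc39a1 (reactivated), 7 for Slc30a1 (reactivating) and 6 for Slc39a4 (reactivated). For Slc39a8 they amounted to 8.74%, 24.4% and 18.2% of the sense reads in dormant, reactivating and reactivated blastocysts, and for Mtf1 to 2.5%, 1.84% and 5.86%. In GENCODE M21 a gene on the other strand, 1110065P20Rik, overlaps Mtf1 by 721 bases, and another, 4933401H06Rik, overlaps Slc39a8 by 6569 bases.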

How the results depend on the processing

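The calls of Slc30a1, Mt1, Mt2 and Slc39a4, and the lack of a call for the other 6 genes, were the same under all 8 alternatives in all 3 comparisons. Not every alternative could have changed them. Dropping the minimum, raising it to 5 RPKM or using a smaller pseudocount could not have undone the calls of these genes. Neither change of the minimum could have added a call. The changes of scaling and the use of CPM could have done either. Between reactivated and dormant blastocysts the log2 difference ranged from 2.66 to 2.86 for Slc30a1, 1.97 to 2.14 for Mt1, 2.04 to 2.22 for Mt2 and -1.60 to -1.33 for Slc39a4. That of Slc30a4 ran from -0.03 to 0.13, without a direction. Alternatives for Slc30a2 (1.08 to 1.30), Steap3 and Alpl (-1.98 to -1.81) were added after the data were seen. Scaling intron reads to the intron total of each library changed whether exon and intron intervals lay apart between reactivated and dormant blastocysts for Mt1, Mtf1, Slc30a5 and Slc39a10. Counts over all genes moved more. A pseudocount of 0.1 gave 617 genes higher and 598 lower for reactivating against dormant, 959 and 1630 for reactivated against dormant, and 756 and 1618 for reactivated against reactivating, in place of 325 and 372, 634 and 922, and 461 and 920. With CPM, 227, 1388 and 1462 genes were lower in these comparisons. A minimum of 5 RPKM gave 131 higher and 185 lower in the first and 290 and 610 in the third, and upper-quartile scaling gave 707 higher in the third. No paired analysis was possible because each state is 1 library, and no library could be left out for the same reason. Depth limits Slc39a8 most, with 58 to 116 exon reads.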

Other observations

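Reads across exon junctions, counted apart by the authors, gave another view of the 10 genes. Mt1 had 92, 186 and 663 junction reads in dormant, reactivating and reactivated blastocysts and Mt2 had 123, 121 and 535, with ratios of reactivated to dormant of 5.36 (4.30 to 6.74) and 3.24 (2.65 to 3.97). Slc30a1 had 0, 2 and 22, and Slc39a4 had 67, 85 and 31, a ratio of 0.344 (0.217 to 0.534). Slc30a4 had 44, 95 and 98, so that after scaling to library size its junction reads at 6 h were 1.94 times those in dormancy (1.35 to 2.85) while its exon level was flat and its intron reads were fewer. Slc39a1 had 20, 11 and 9 junction reads with an exon level that did not fall, a ratio of reactivated to dormant of 0.335 (0.134 to 0.769). Slc39a8 had 2, 4 and 21.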
